A study of Mus musculus with 8 samples.

Results

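Nr0b2, Cyp8b1, Cyp7a1, Scarb1, Abcg5, Abcg8, Apom, Star and Cyp19a1 are known targets of the NR5A nuclear receptors in bile acid, cholesterol and steroid metabolism, and were listed by name. They are 9 of the 21938 protein-coding genes of the annotation. For each gene, a window was drawn over the gene body and 50 kb to either side of its first start site on mm10. A peak counted for the gene when its summit, the position of most tags in the peak, lay in that window. The comparison asks whether native Nr5a2 and its BiD fusion were found at these genes in fibroblasts.

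The data were peak lists from CUT&Tag, an assay in which Tn5, tethered through an antibody, cuts and tags the DNA around a bound protein. All libraries came from MEFs, fibroblasts of the mouse embryo, on day 3 of their reprogramming. Per the study's methods, its MEFs were OG2 cells from mid-gestation embryos, which carry an Oct4-GFP reporter, and factors were delivered by retrovirus before culture in iCD3 medium. The Flag antibody read the delivered factor and not the cell's own protein. The 8 groups were Nr5a2, Nr5a2BiD, Oct4, Oct4BiD, Sox2, Sox2BiD, Nanog and NanogBiD, with 1 library each. BiD is the BRG1-interacting domain of SS18, a subunit of the BAF chromatin remodeling complex, fused to the N-terminal end of each factor. Whether the cells also received other factors is not given in the titles, and factor levels were not measured here. With 1 library per group there is no replicate error, no test was made, and differences below are between libraries.

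Nr5a2, also called LRH-1, is a nuclear receptor that binds DNA as a monomer at an extended AAGGTCA-type site. In liver and intestine it is known as a regulator of bile acid synthesis and cholesterol transport, and in the ovary, with its relative Nr5a1, of steroid synthesis. Native Nr5a2 and Nr5a2BiD both had peak summits in the windows of all 9 genes, and all 9 also held at least 1 region with peaks of both forms and of no other factor. Because most protein-coding genes had the same, the values below are given beside the whole annotation.

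The NR5A motif was searched as TCAAGGTCA, TCAAGGCCA, CCAAGGTCA or CCAAGGCCA on both strands, within 50 bp of a summit. The sequences below are 101 bp centred on a summit, with the motif in capitals. They are shown because they place the factor's own recognition letters under peaks of both Nr5a2 libraries at 8 of the genes. For each gene the matching region with the highest such summit was taken, and Abcg5 and Abcg8 share theirs. All are read 5′ to 3′ on the plus strand of mm10, so that a motif on the other strand appears as its complement. Cyp7a1 had no such region.

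Nr0b2, in an intron of Kdf1 (chr4:133522663-133522763, plus strand): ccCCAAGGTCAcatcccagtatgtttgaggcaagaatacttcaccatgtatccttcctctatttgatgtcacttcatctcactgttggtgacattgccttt
Cyp8b1, in an intron of Ackr2 (chr9:121903785-121903885, plus strand): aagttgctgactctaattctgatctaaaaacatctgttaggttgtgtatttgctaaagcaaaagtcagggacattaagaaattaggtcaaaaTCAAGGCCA
Scarb1, upstream and intergenic (chr5:125344459-125344559, plus strand): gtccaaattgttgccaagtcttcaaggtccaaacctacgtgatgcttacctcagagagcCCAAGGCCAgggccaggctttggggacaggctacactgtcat
Abcg5 and Abcg8, at a coding exon of Abcg8 (chr17:84696672-84696772, plus strand): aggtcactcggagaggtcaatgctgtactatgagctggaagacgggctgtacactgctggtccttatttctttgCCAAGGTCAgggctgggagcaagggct
Apom, in an intron of Bag6 (chr17:35142097-35142197, plus strand): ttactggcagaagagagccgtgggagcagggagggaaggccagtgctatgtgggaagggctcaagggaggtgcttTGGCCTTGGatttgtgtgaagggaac
Star, at a non-coding exon of Bag4 (chr8:25775809-25775909, plus strand): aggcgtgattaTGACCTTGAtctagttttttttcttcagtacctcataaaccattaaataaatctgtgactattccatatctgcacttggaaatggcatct
Cyp19a1, in its own intron (chr9:54234612-54234712, plus strand): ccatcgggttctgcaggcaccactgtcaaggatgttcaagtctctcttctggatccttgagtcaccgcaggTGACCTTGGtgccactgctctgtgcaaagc

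The letters differed between the sites. The region at Star held TCAAGGTCA, those at Nr0b2, Abcg8 and Cyp19a1 held CCAAGGTCA, that at Cyp8b1 held TCAAGGCCA, and those at Scarb1 and Apom held CCAAGGCCA. At Scarb1, Abcg8 and Cyp8b1 the motif lay within 50 bp of the summits of both forms. At Nr0b2 and Star only the native summit was that near, and at Apom and Cyp19a1 only the Nr5a2BiD summit was, although the other form had a peak in the same region. A match describes the letters at a summit and does not show that the factor contacted them.

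Across the windows, native Nr5a2 had 85 summits, each counted once, and Nr5a2BiD had 62. The other 6 libraries had between 18 in Sox2 and 54 in Sox2BiD, with 32 in Oct4, 36 in Oct4BiD, 30 in Nanog and 43 in NanogBiD. The lists differ in length, from 54794 peaks in Oct4 to 120594 in Sox2BiD, so the sums were also taken per 10000 peaks of the library. On that scale native Nr5a2 had 7.87 and Nr5a2BiD had 8.13, and the other libraries had between 3.09 in Sox2 and 5.84 in Oct4. Both Nr5a2 libraries thus stood above the other 6 on either count. With scores of at least 100, however, Nr5a2BiD had 32 summits and Sox2BiD had more. The order of the 2 Nr5a2 forms depended on the scale. Native Nr5a2 was above Nr5a2BiD in the sums and below it per 10000 peaks. Among the 50000 highest peaks of each library, where the lists are of equal length, native Nr5a2 had 48 summits and Nr5a2BiD 39.

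Each member's window had a median of 11 native Nr5a2 summits against 8 over all protein-coding genes, and 9 Nr5a2BiD summits against 5. For the other factors the member median was level with the annotation in Oct4BiD (5 and 5), Sox2 (2 and 2) and Nanog (4 and 4). It was above it in Oct4 (4 and 3), Sox2BiD (7 and 6) and NanogBiD (6 and 4). A window with at least 1 summit was common everywhere. All 9 genes had one in native Nr5a2, against 87.5% of protein-coding genes, and all 9 in Nr5a2BiD, against 86.0%. In Oct4, Oct4BiD, Sox2BiD, Nanog and NanogBiD all 9 did as well, against 82.1%, 86.5%, 88.7%, 84.0% and 83.6%. In Sox2 8 of 9 did, against 77.5%. Presence of a summit alone therefore did not set the 9 genes apart in any library.

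**Figure D1:**
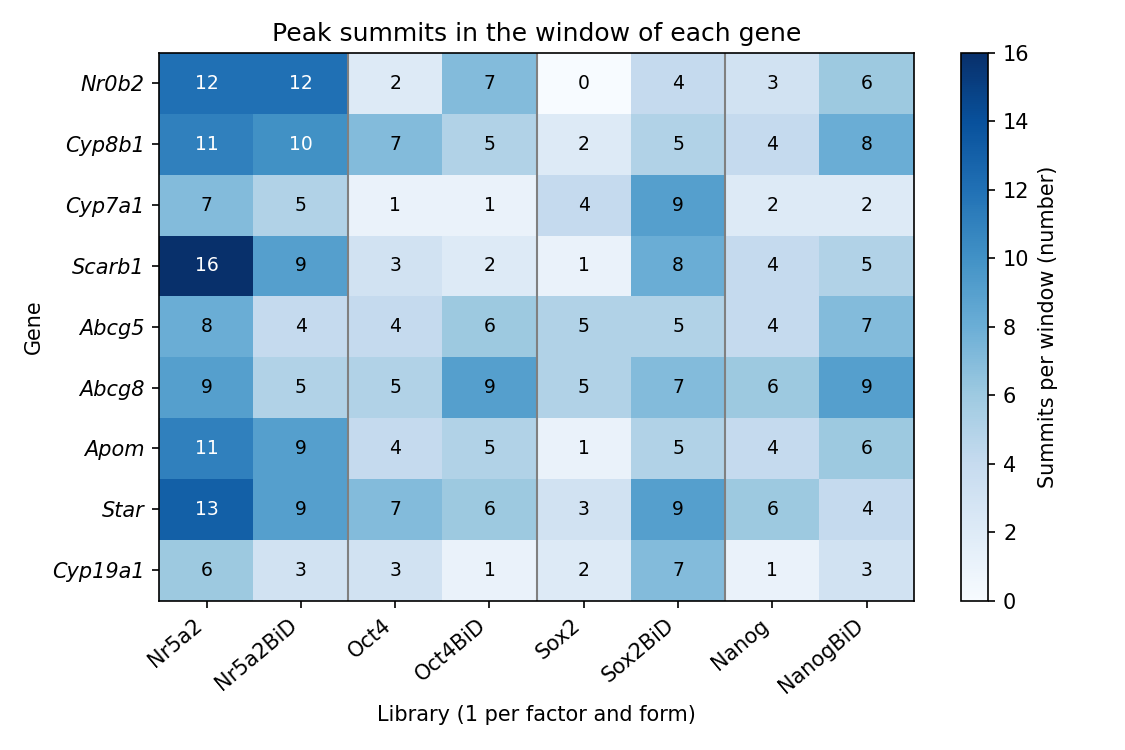
Heat map of the number of peak summits in the window of each of the 9 genes (rows) in each of the 8 libraries (columns). Counts run from 0, for Nr0b2 in Sox2, to 16, for Scarb1 in native Nr5a2, and the 2 Nr5a2 columns on the left are the darkest for Nr0b2, Cyp8b1, Scarb1 and Apom but not for Cyp7a1 or Cyp19a1.

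**Figure D2:**
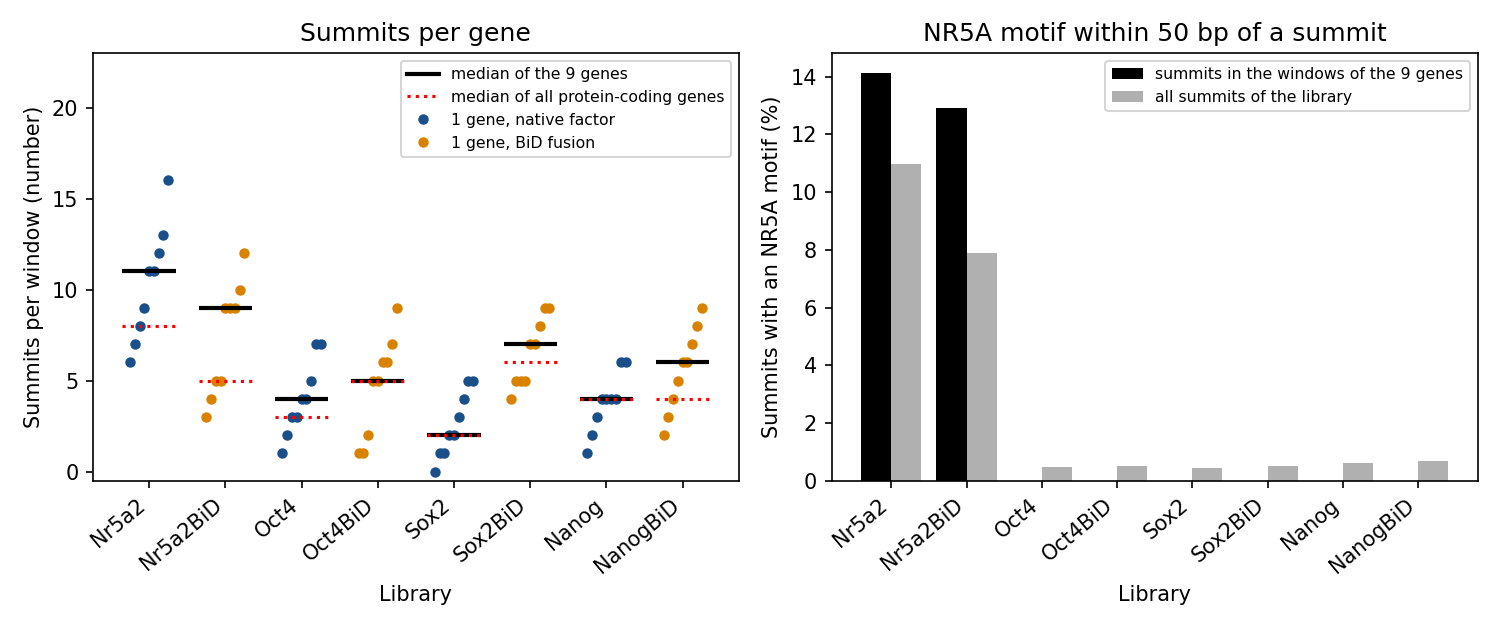
Left, summits per window for each gene (points), their median (black line) and the median of all protein-coding genes (dotted line) in each library. Right, percentage of summits with an NR5A motif within 50 bp, for the windows of the 9 genes (black bars) and for all summits of the library (grey bars), with black bars of 14.1% and 12.9% in the Nr5a2 libraries and 0% in the other 6.

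The depth of the libraries cannot be read from the lists, and a summit height is an unscaled number of tags. The study's reporting form gives fewer uniquely mapped read pairs to native Nr5a2 than to Nr5a2BiD. As a check of the labels, an NR5A motif lay within 50 bp of 11.0% of all native Nr5a2 summits and 7.89% of all Nr5a2BiD summits. That was 9.43 and 6.56 times the share in windows 500 bp away, while the ratio was between 0.468 and 0.597 in the other 6 libraries. Promoters of 7 of 8 fibroblast marker genes, among them Col1a1 and Twist1, held a summit in each Nr5a2 library, against 63.5% and 54% of protein-coding genes, as did 5 to 8 of them in the other 6 libraries. None of 8 hepatocyte marker genes, among them Alb and Afp, did in either Nr5a2 library, and 0 to 3 did in the other 6. Of 6 markers of steroid-producing cells, the same 3 had a promoter summit in both, namely Insl3, Cyp17a1 and Lhcgr, and of 5 intestinal markers 3 had one in native Nr5a2 and 1 in Nr5a2BiD. A summit shows a tagged factor and not expression, and no RNA of these cells was analysed here.

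Nr0b2 encodes SHP, an orphan receptor without a DNA-binding domain that represses bile acid synthesis by binding to NR5A2 and other receptors. Its window held 12 summits in native Nr5a2, 12 in Nr5a2BiD, 2 in Oct4, 7 in Oct4BiD, 0 in Sox2, 4 in Sox2BiD, 3 in Nanog and 6 in NanogBiD. It was the only one of the 9 genes at which Nr5a2BiD had as many summits as native Nr5a2. As many Nr5a2BiD summits were found for 5.47% of protein-coding genes, and as many native summits for 23.6%. The highest peak sat at the promoter, in a region of both Nr5a2 libraries and of no other library. Its native summit lay 260 bp upstream of the start site with a height of 103 tags, and its Nr5a2BiD summit 242 bp upstream with 84 tags. The score of a peak is 10 times the negative log10 of the peak caller's p-value. Only 23 of 108030 native peaks, or 0.0213%, and 0.161% of Nr5a2BiD peaks had a score as high as this one. The window of 0.205% of protein-coding genes held a native score as high. Of all members, Nr0b2 had the most regions of both forms (11), and 5 of them had no peak of another factor.

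The Nr0b2 promoter is shown because this peak lies on it. The 250 bases before the RefSeq start site (the first 250 of GRCm38.p6 chr4:133553126-133553425, plus strand) held no 9-letter NR5A motif and 1 match to the 7-letter core AAGGCCA, in capitals, 200 bases upstream.

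Nr0b2 promoter: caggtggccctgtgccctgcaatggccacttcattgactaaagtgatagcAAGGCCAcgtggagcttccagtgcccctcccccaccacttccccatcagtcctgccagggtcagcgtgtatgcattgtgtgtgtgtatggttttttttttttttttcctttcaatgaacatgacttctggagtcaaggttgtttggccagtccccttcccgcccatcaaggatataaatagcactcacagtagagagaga

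The core match lay within 50 bp of the Nr5a2BiD summit and not of the native one. The 9-letter motif was found in 2.22% and the core in 10.6% of 32851 RefSeq promoters, each of 250 bases before and 50 after a start. Matches near other Nr0b2 summits lay at -42.9 and -30.7 kb in the native library and at 9.87 kb in Nr5a2BiD. Kdf1, Nudc, Gpatch3, Gpn2 and Sfn also start in this window, and most of its other summits were nearer to them: 2 native and 2 Nr5a2BiD summits had Nr0b2 as the nearest coding start site.

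Cyp8b1 encodes the sterol 12α-hydroxylase that sets the share of cholic acid in the bile acid pool. Summits numbered 11 in native Nr5a2, 10 in Nr5a2BiD, 7 in Oct4, 5 in Oct4BiD, 2 in Sox2, 5 in Sox2BiD, 4 in Nanog and 8 in NanogBiD. The region over its start was again of the Nr5a2 libraries only. The native summit lay 52 bp inside the gene with 31 tags and the Nr5a2BiD summit 121 bp inside with 28 tags, both within the single coding exon. Scores there were modest, at 91.7 and 74.3, and 64.8% and 74.8% of the peaks of each library scored as high. A nearby intergenic region at -6.97 kb was the one at which Nr5a2BiD exceeded the native form most among all 58 shared regions, with 49 against 32 tags. Cyp8b1 had 9 regions of both forms, of which 4 held no other factor. The higher peaks, with 59 and 58 tags at 33.9 kb and 55 and 43 tags at 25.7 kb downstream, also held peaks of NanogBiD, the second of Nanog too, and were nearest to Ackr2.

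The 250 bases before the Cyp8b1 start (in GRCm38.p6 chr9:121916256-121916555, minus strand, read 5′ to 3′ toward the gene) are shown for comparison with Nr0b2, since both carried an Nr5a2-only region. They held no 9-letter motif and 1 core, AAGGCCA, in capitals, 27 bases upstream. This core was not within 50 bp of the native or the Nr5a2BiD summit.

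Cyp8b1 promoter: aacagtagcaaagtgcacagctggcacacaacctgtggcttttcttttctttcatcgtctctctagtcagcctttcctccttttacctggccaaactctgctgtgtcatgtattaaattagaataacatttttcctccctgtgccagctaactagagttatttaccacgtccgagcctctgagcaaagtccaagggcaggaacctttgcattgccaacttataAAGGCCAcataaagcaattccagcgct

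Cyp7a1 encodes cholesterol 7α-hydroxylase, the rate-limiting enzyme of bile acid synthesis. It stood apart from the other bile acid genes, since Sox2BiD had more summits (9) than native Nr5a2 (7) or Nr5a2BiD (5). Oct4 and Oct4BiD had 1 each, Sox2 had 4, and Nanog and NanogBiD had 2 each. The native count was below the annotation's median of 8, and 60.2% of protein-coding genes had as many. Neither Nr5a2 library had a summit within 2 kb of a Cyp7a1 start site. The nearest native summit lay 4.17 kb inside the gene with 16 tags, in a region shared with Sox2BiD, and the nearest Nr5a2BiD summit at 9.81 kb with 17 tags. Oct4 and Oct4BiD, by contrast, each had a summit 403 and 331 bp from a start site, and Sox2BiD had one at -1946 bp. Of 5 regions of both Nr5a2 forms, 3 had no other factor, at 41.5, 9.9 and -27.2 kb, with 40 and 33, 18 and 17, and 26 and 16 native and Nr5a2BiD tags. None of the 5 NR5A motifs in the window lay near a summit of either form. No other coding gene starts in this window.

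**Figure D3:**
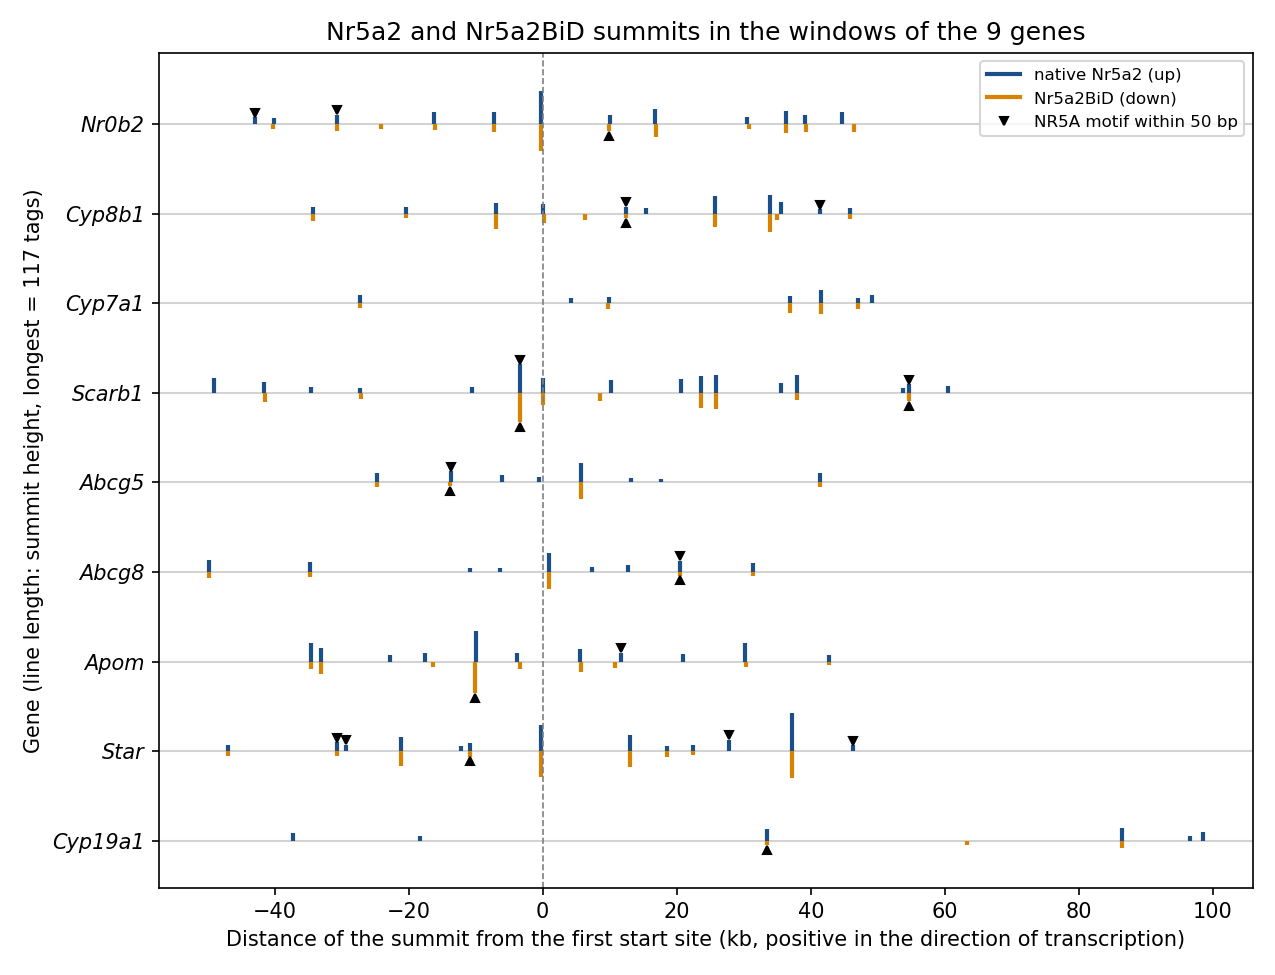
Position of each native Nr5a2 (upward lines) and Nr5a2BiD (downward lines) summit in the windows of the 9 genes, as distance in kb from the first start site in the direction of transcription, with line length in proportion to the height (longest 117 tags) and triangles where an NR5A motif lay within 50 bp. Long lines of both forms stand at the start of Nr0b2 and Star and just upstream of Scarb1, while Cyp7a1 and Cyp19a1 have only short ones.

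Scarb1 encodes SR-BI, the receptor that takes up cholesterol ester from HDL in liver and steroid-producing cells. Native Nr5a2 had 16 summits here, the most of the 9 genes, against 9 in Nr5a2BiD, 3 in Oct4, 2 in Oct4BiD, 1 in Sox2, 8 in Sox2BiD, 4 in Nanog and 5 in NanogBiD. As many native summits were found for 5.99% of protein-coding genes. In the gene body lay 10 native and 6 Nr5a2BiD summits, but the body makes up the larger part of this 114 kb window. Cyp19a1, which also has a long body, had 4 of its 6 native and 3 of its 3 Nr5a2BiD summits there. At the start site, native and Nr5a2BiD summits of 46 and 38 tags lay 39 and 72 bp inside the first start, in a region shared with Nanog and NanogBiD. The highest summits were at -3.46 and -3.42 kb, with 89 native and 91 Nr5a2BiD tags, in the region whose sequence with CCAAGGCCA is given above. Scarb1 had 10 regions of both forms, and 6 held no other factor. As many such regions were found for 5.65% of protein-coding genes. One of them, at a coding exon 37.9 kb into the gene, had 56 native and 21 Nr5a2BiD tags, while introns at 25.9 and 23.6 kb had 54 and 50, and 51 and 47 tags. The difference in height between the libraries of the forms was thus uneven along a single gene.

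Abcg5 and Abcg8 encode the half-transporters that together export cholesterol and plant sterols into bile and the gut lumen. They are divergent neighbours whose windows overlap, so most of their summits are the same peaks and they are not independent. Abcg5 had 8 summits in native Nr5a2, 4 in Nr5a2BiD, 4 in Oct4, 6 in Oct4BiD, 5 in Sox2, 5 in Sox2BiD, 4 in Nanog and 7 in NanogBiD. Abcg8 had 9, 5, 5, 9, 5, 7, 6 and 9 in the same order. Here the Nr5a2 libraries did not stand above the others, since Oct4BiD and NanogBiD reached the native Nr5a2 count at Abcg8 and both exceeded Nr5a2BiD at either gene. The main peak lay in an intron of both genes, with its native and Nr5a2BiD summits 1004 and 940 bp from the first start of Abcg8, 59 native and 53 Nr5a2BiD tags and no peak of another factor. Its scores of 575 and 486 were reached by 3.00% and 3.49% of the peaks of each library. The other Nr5a2-only regions lay at 41.4, -13.7 and -24.7 kb from the first start of Abcg5, with 30 and 15, 35 and 12, and 29 and 14 native and Nr5a2BiD tags. In these the fused form had well under the native height, unlike in the main peak. From the first start of Abcg5, the main peak's native and Nr5a2BiD summits lay at 5.705 and 5.769 kb. The native summit nearest to a start site of either gene was a lower one, with 16 tags and a score of 100.89. It lay at -597 bp from the first start of Abcg5 and at 477 bp from a later start of Abcg8. Its region held no peak of Nr5a2BiD or of another factor.

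Apom encodes apolipoprotein M, a carrier of sphingosine-1-phosphate on HDL. Its window held 11 summits in native Nr5a2, 9 in Nr5a2BiD, 4 in Oct4, 5 in Oct4BiD, 1 in Sox2, 5 in Sox2BiD, 4 in Nanog and 6 in NanogBiD. Apom and Cyp7a1 were the genes with no promoter summit in either Nr5a2 library. The nearest ones lay at -3.82 and -3.45 kb, at a UTR of Bag6, with 27 and 24 tags and peaks of 7 libraries. The window is dense, with 10 other coding genes starting in it, and none of its Nr5a2 summits had Apom as its nearest coding start. The highest, at -10.0 and -10.1 kb over a coding exon and intron of Bag6, had 94 native and 98 Nr5a2BiD tags and no other factor. Only 0.0407% of native and 0.115% of Nr5a2BiD peaks scored as high. Apom had 7 regions of both forms and 3 with no other factor. A peak in an intron of Abhd16a, at 30.2 kb, had the lowest ratio of Nr5a2BiD to native height of all 58 shared regions, with 17 and 58 tags.

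Star encodes the protein that moves cholesterol to the inner mitochondrial membrane, the acute control point of steroid synthesis. Summits numbered 13 in native Nr5a2, 9 in Nr5a2BiD, 7 in Oct4, 6 in Oct4BiD, 3 in Sox2, 9 in Sox2BiD, 6 in Nanog and 4 in NanogBiD. At the promoter the native summit lay 222 bp upstream with 81 tags and the Nr5a2BiD summit 265 bp upstream with 82 tags. This region also held peaks of Oct4, Sox2BiD, Nanog and NanogBiD, at 23, 17, 26 and 25 tags, so it was not particular to Nr5a2. The highest summit of all windows was in an intron of Ash2l, 37.2 kb from Star, with 117 native and 85 Nr5a2BiD tags and no other factor. Only 6 native peaks in the genome, or 0.00555%, scored as high, and 0.123% of Nr5a2BiD peaks did. Star had 9 regions of both forms, 4 of them without another factor, and 4 native summits with an NR5A motif, the most of the 9 genes.

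Cyp19a1 encodes aromatase, which converts androgens to estrogens in the ovary and other tissues from several tissue-specific promoters. It had the fewest Nr5a2 summits, 6 in the native library and 3 in Nr5a2BiD, beside 3 in Oct4, 1 in Oct4BiD, 2 in Sox2, 7 in Sox2BiD, 1 in Nanog and 3 in NanogBiD. Its window was the longest of the 9, at 152 kb. Native counts as high were found for 66.0% and Nr5a2BiD counts as high for 72.8% of protein-coding genes. The promoter call rested on a short retained-intron transcript, 478 and 477 bp from whose start the native and Nr5a2BiD summits lay, with 39 and 23 tags and a Sox2BiD peak in the region. No Nr5a2 summit lay within 2 kb of the first start, although the RefSeq promoter there (GRCm38.p6, chr9:54268115-54268414) held 1 NR5A motif. That motif was not within the 250 bases before the RefSeq start. The only region of both Nr5a2 forms alone was the intronic one at 33.5 kb, with 35 native and 14 Nr5a2BiD tags and the motif CCAAGGTCA shown above.

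By role, the member genes therefore split without a single pattern. Among bile acid genes, Nr0b2 and Cyp8b1 had an Nr5a2-only region over the start site and Cyp7a1 had no promoter summit. In cholesterol transport, Scarb1 and the Abcg5 and Abcg8 pair had promoter summits and Apom had none. The pair was called by the same summits in each library. The Nr5a2BiD summit lay 5.77 kb inside the first start of Abcg5 and 940 bp inside that of Abcg8. Of the 2 Nr5a2 forms, only the native one had a summit within 2 kb of the first start of Abcg5. In steroid synthesis, the Star promoter was shared with other factors and Cyp19a1 held few peaks. In number, 7 of 9 genes had a promoter summit in native Nr5a2, against 63.5% of protein-coding genes, and 7 of 9 in Nr5a2BiD, against 54%. Counting the first start site alone left 6 and 5 genes. Over all protein-coding genes the nearest summit lay a median of 565 bp from a start site in native Nr5a2 and 1251 bp in Nr5a2BiD.

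Regions were formed by joining peaks of all libraries that overlapped by at least 1 bp. The windows held 88 regions with a peak of either Nr5a2 library: 58 of both forms, 26 of native Nr5a2 alone of the pair and 4 of Nr5a2BiD alone. Regions of both forms made up 65.9% of the member regions and 55.5% of those in the genome, native-only ones 29.5% and 35.7%, and Nr5a2BiD-only ones 4.55% and 8.84%. The fused form was therefore found mostly where the native one was. All 9 genes had a region of both forms, against 84.6% of protein-coding genes, and the median was 7 regions against 5. All 9 also had a region of both forms and of no other library, against 74.0%, with a median of 4 against 2. Such regions numbered 30, or 34.1% of the member regions against 26.5% in the genome.

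The other 28 shared regions also held a peak of another factor. NanogBiD had a peak in 22 of the 58, Sox2BiD in 19, Nanog in 17, Oct4BiD in 13, Oct4 in 10 and Sox2 in 6. For NanogBiD that was 37.9% against 32.7% of shared regions in the genome, and for Sox2 it was 10.3% against 17.2%. Neither difference can be read against replicate error.

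An NR5A motif lay near 12 of the 85 native summits (14.1%, against 11.0% of the library) and near 8 of the 62 Nr5a2BiD summits (12.9%, against 7.89%). None of the summits of the other 6 libraries in these windows had one, beside 0.442% to 0.663% of all their summits. At least 1 such summit was found for 7 of 9 genes in native Nr5a2, against 51.6% of protein-coding genes, and for 8 of 9 in Nr5a2BiD, against 31.7%. Abcg5 and Abcg8 counted by the same summit in each. Of the 30 regions of both forms that no other factor shared 9 held one, against 14.9% in the genome. Of the 28 regions shared with another factor 2 did, against 9.99%. Of the 26 native-only regions 5 did, against 12.9%, and of the 4 Nr5a2BiD-only regions none did, against 6.41%.

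Most copies of the motif carried no peak. The windows held 143 NR5A motifs, of which 13 lay within 50 bp of a native summit, 8 of an Nr5a2BiD summit and 0 of a summit of any other library. In the genome 5.09% of 242092 motifs lay near a native summit, 2.62% near an Nr5a2BiD summit and 0.843% near one of the other 6 libraries. The share near a native summit was thus 9.09% in the windows. It ranged from 0% for Cyp7a1 (0 of 5 motifs) and Cyp19a1 (0 of 17) to 22.2% for Cyp8b1 (2 of 9), beside 20% for Star (4 of 20).

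Between the forms, 8 of 9 genes had fewer summits in Nr5a2BiD than in native Nr5a2, against 74.0% of protein-coding genes, and none had more. The ratio of the sums was -0.46 on the log2 scale, beside -0.50 for all peaks of the lists. It was -0.93 with scores of at least 100, and -0.30 with the 50000 highest peaks of each library, where the lists are of equal length. Sums moved the other way for the other factors, by 0.17 for Oct4, 1.58 for Sox2 and 0.52 for Nanog, beside 0.78, 1.05 and 0.04 over all their peaks. The Oct4 ratio did not keep its direction, being -0.42 with 10 kb flanks and -0.49 with the 50000 highest peaks of each library.

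Heights at the 58 shared regions were lower in Nr5a2BiD at 47, equal at 1 and higher at 10, with a median log2 ratio of -0.33 and a range from -1.77 to 0.61. Over 64503 such regions of the genome the median was -0.19, and 64.0% were lower, against 81.0% at the 9 genes. Heights are not scaled to depth, and whether depth moves with this difference was not tested. Among the regions with the tallest peaks, those at the Star promoter, upstream of Scarb1 and in Bag6 had log2 ratios of 0.02, 0.03 and 0.06. The promoter of Nr0b2 had -0.29 and the Ash2l intron beside Star -0.46.

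**Figure D4:**
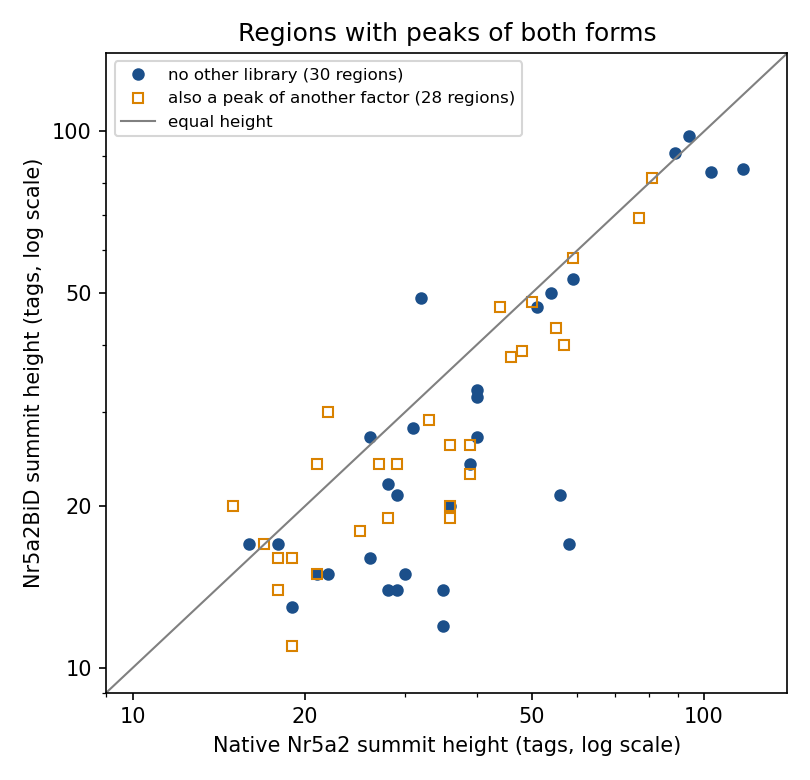
Summit height of native Nr5a2 (x axis) and Nr5a2BiD (y axis), in tags on log scales, at the 58 regions of the windows with peaks of both forms, as filled circles for the 30 regions of no other library and open squares for the 28 shared with another factor. Of the points 47 lie under the line of equal height, and the lowest ratio, -1.77, is that of 58 native and 17 Nr5a2BiD tags in the Apom window.

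Many summits in a window were nearer to another gene. Of the 85 native summits 32, and of the 62 Nr5a2BiD summits 21, had the start site of a member as their nearest coding start. By annotation, 32 native summits lay in introns, 24 were intergenic, 8 were at coding exons and 9 at UTRs. In Nr5a2BiD 20 were intronic, 21 intergenic, 3 at coding exons and 9 at UTRs.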

How the data were processed

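CUT&Tag peak lists of 8 libraries were used, 1 per group, grouped by title. Per the study's methods and the submitters' processing notes, reads passed through Trim Galore 0.6.4 for trimming and Bowtie2 2.4.5 for mapping to mm10. Repetitive, low-quality and mitochondrial reads were taken out by SAMtools 1.16.1, and MACS 1.4.2 called the peaks with at most 1 tag at a position. No control library is named. The deposited score is the −log10 of the p-value that MACS gave, multiplied by 10, with a lowest value of 50, and the deposited summit height is the authors' unscaled signal in tags. Scores and peak numbers grow with read depth, and peaks in repeats are lost. The methods state that replicates were merged, whereas the reporting form states that the experiment was done once. The kit and cell number also differ between the labels and the methods.

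Here, summits were counted in windows made from GENCODE M21 and compared with GRCm38 sequence and RefSeq promoters (GRCm38.p6). Promoters of 6 members were in that table, and those of Cyp7a1, Scarb1 and Star were not. A promoter summit lay within 2 kb of any start site of the gene. The members, lists and rules were chosen with earlier results of these data known. All 9 members are named with their nearest and highest summits. Of their regions of both forms alone and their motif sites, only some are named by position. Other genes are named as the 5 most alike in profile and the 5 pathway genes with most regions of both forms alone. One motif region of both forms is printed per gene, that with the highest motif summit. With 1 library per group, the forms of a single factor could not be tested against each other, and a model of form across the 4 factors was not fitted. Counting was tested on simulated data with known answers. Alternatives were wider and narrower windows, stricter peaks, other motif settings and other rules for joining peaks. Python 3.11.15, NumPy 2.4.6, pandas 2.3.3 and matplotlib 3.10.9 were used.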

Additional observations from a re-analysis of the deposited data

Results flagged for a closer look

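The BiD contrast went in opposite directions for different factors in the windows of the 9 genes. The log2 ratio of summed summits, BiD over native, was -0.46 for Nr5a2 and was above 0 for Oct4 (0.17), Sox2 (1.58) and Nanog (0.52). With 1 library per group the difference was not tested. Over all peaks of the lists the ratios were -0.50, 0.78, 1.05 and 0.04. The Oct4 ratio changed sign, to -0.42 with 10 kb flanks and to -0.49 with the 50000 highest peaks of each library, while the other ratios kept theirs under the settings tried.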

How the results depend on the processing

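Of the values recomputed under other settings, 62 stayed within 1.5 times the reported value, 34 moved further and 2 changed sign. Log2 ratios were judged as unlogged ratios. A log2 ratio counted as staying could therefore change more on its own scale, as for Nr5a2 from -0.46 to -0.93 with scores of at least 100. All alternatives chosen were run. No paired analysis of replicates was possible because each group holds 1 library, and a comparison of form across the 4 factors was not made. Every window and peak rule tried left all 9 genes with summits of both Nr5a2 libraries and the Nr5a2 ratio below 0, between -0.93 with scores of at least 100 and -0.30 with the 50000 peaks of highest score per library.

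With 100 kb flanks the summed summits were 163 in native Nr5a2 and 123 in Nr5a2BiD, with 109 regions of both forms, 50 of both forms alone and 22 native motif summits. With 10 kb flanks they were 31 and 22, with 20 and 15 regions, the latter at 8 of the 9 genes, 3 and 5 motif summits at 2 and 4 genes, and ratios of -0.42 for Oct4, which changed sign, and 2.46 for Sox2. Scores of at least 100 left 32 Nr5a2BiD summits, fewer than in Sox2BiD. They also left 30 and 17 regions, 4 Nr5a2BiD motif summits at 3 genes and an Oct4 ratio of 1.13. The 50000 highest peaks left 48 and 39 summits, 35 regions of both forms, 6 and 5 motif summits, 4 genes with one in Nr5a2BiD, and ratios of -0.49 for Oct4, which changed sign, and 0.51 for Sox2. A motif within 25 bp was found at 2 native and 4 Nr5a2BiD summits, at 2 and 4 genes, within 100 bp at 13 Nr5a2BiD summits, and the 7-letter core at 23 and 17. The fewer peaks or bases follow from each setting, and the cause of the sign changes for Oct4 was not tested. Depth is unknown from the lists, so a missing peak is a peak not called.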

Other observations

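Of 40 listed genes of bile acid, cholesterol and lipoprotein, and steroid metabolism, all 40 had a summit of native Nr5a2 and of Nr5a2BiD, against 87.5% and 86.0% of protein-coding genes. All 40 had a region of both, against 84.6%, and 39 had a region of both forms and no other factor, against 74.0%. Their medians were 10.5 native and 7 Nr5a2BiD summits, beside 8 and 5 over all protein-coding genes. Of the 40, 32 had fewer in Nr5a2BiD, against 74.0%, and 3 had more. Promoter summits were found at 30 of 40 in native Nr5a2, against 63.5% of protein-coding genes, and at 17 of 40 in Nr5a2BiD, against 54%, which is below the share of the annotation and below the 7 of 9 of the genes described above. The most regions of both forms alone were at Lipc, which encodes hepatic lipase, and Fgf15, the gut signal that lowers bile acid synthesis, with 8 each, although the Lipc window spans 204 kb and that of Fgf15 100 kb. Apoa1 and Apoa4, neighbouring apolipoprotein genes with overlapping windows, had 7 each, and Srebf2, a master regulator of cholesterol synthesis, had 6. At Fgf15, native Nr5a2 had 13 and Nr5a2BiD 12 summits. The other libraries had 1 in Oct4, Sox2 and Nanog each, 3 in Oct4BiD and NanogBiD each, and 7 in Sox2BiD.

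Over the 8 libraries, the genes whose summit counts on the log2(summits + 1) scale were most like the sum of the 9 were Thpo, Rhbdl2, Nccrp1, Mapk6 and Kdm8, with Pearson's r from 0.991 to 0.992, out of 18501 genes compared. The points share the length of each list. Among the members, r with the summed profile ran from 0.417 for Abcg5 to 0.951 for Scarb1.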
